A study of Mus musculus with 696 samples.

Results

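Skint2, Skint6, Skint9 and Skint10 are 4 of the 11 genes of the mouse Skint family, and 4 of the 15652 genes of the deposited table. They were followed here in single Lrig1 GL cells of tail skin (keratinocytes that descend from Lrig1+ stem cells of the upper hair follicle, marked by tdTomato) through their level on each plate, the share of cells with a count and their co-expression. The 4 genes were chosen by these same values (level per plate, share of positive cells, co-expression) in these same cells, so their levels, shares and correlations are given as a description and without a test.

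Mice with Lrig1-EGFP-ires-CreERT2 and a Rosa26-fl/STOP/fl-tdTomato reporter were used, of a strain given as CBA C57BL/6 mixed. They were adult females. All groups carried both alleles and received hydroxytamoxifen once on the tail skin before any wound, the controls included. Cre was driven from the Lrig1 locus, so that only the offspring of cells with Lrig1 expression at the time of the dose could be sorted. Cells came from unwounded skin (0w), from skin taken 1 week (1w pw1) or 8 weeks (8w pw1) after a full-thickness punch, and from skin 1 week after a further punch that overlapped the healed site (1w pw2), which the labels call week 9. According to the paper, the sorted zone took in the wound bed together with follicles of the distal memory area. Unwounded skin has no wound bed, so the sampled regions differ in this. Each of these 4 time points had 2 plates of single cells, with 179, 168, 172 and 177 cells in that order, and the plates are the replicates here. The paper describes its single-cell data as joined from 2 independent experiments with 4 biological replicates in each. The labels do not tie plates to mice or to these experiments, so the spread between plates may be technical. They also hold a further mark (RepB, RepC, RepF or RepG), and do not say what it stands for. It is the same for both plates of a time point and cannot be told apart from it.

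The Skint genes (named for selection and upkeep of intraepithelial T cells) encode membrane proteins of the immunoglobulin superfamily that are related to butyrophilins. Skint1, the founding member, is required in the thymic epithelium for the development of dendritic epidermal T cells (DETCs), the gamma delta T cells that live among mouse keratinocytes and respond to damaged skin. In the epidermis Skint genes are known mostly from suprabasal keratinocytes, and the functions of Skint2, Skint6, Skint9 and Skint10 are much less well established than that of Skint1.

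All 11 genes lie in a single cluster of 2.33 Mb on chromosome 4 (GRCm38, chr4:111919392-114245028). Skint9 (chr4:112385969-112433985, minus strand), Skint2 (chr4:112557194-112652248, plus strand), Skint10 (chr4:112711147-112774866, minus strand) and Skint6 (chr4:112804616-113286973, minus strand) follow each other in that order with no other family member between them. Skint6 is by far the longest of the 4 genes in the genome, with 482 kb, against 48.0 kb for Skint9, 63.7 kb for Skint10 and 95.1 kb for Skint2. The library kit does not mark the strand, and annotated antisense or pseudogene models lie within the spans of Skint6 and Skint2, so reads from them cannot be separated from those of the host gene where exons overlap.

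The upstream sequences are shown because they split the 4 genes into pairs that the expression data only partly follow. The 250 bases before the RefSeq start (GRCm38.p6) are printed 5′ to 3′ on the gene's strand, from chr4:112433986-112434235 (minus) for Skint9, chr4:112774862-112775111 (minus) for Skint10, chr4:112613490-112613739 (plus) for Skint2 and chr4:113286974-113287223 (minus) for Skint6. Capitals mark runs of at least 10 aligned bases that were identical between Skint9 and Skint10 in their pair, and between Skint2 and Skint6 in theirs.
Skint9: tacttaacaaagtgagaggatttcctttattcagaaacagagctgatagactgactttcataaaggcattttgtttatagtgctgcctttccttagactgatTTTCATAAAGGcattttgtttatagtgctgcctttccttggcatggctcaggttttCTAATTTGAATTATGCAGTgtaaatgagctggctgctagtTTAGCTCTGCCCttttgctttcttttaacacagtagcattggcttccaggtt
Skint10: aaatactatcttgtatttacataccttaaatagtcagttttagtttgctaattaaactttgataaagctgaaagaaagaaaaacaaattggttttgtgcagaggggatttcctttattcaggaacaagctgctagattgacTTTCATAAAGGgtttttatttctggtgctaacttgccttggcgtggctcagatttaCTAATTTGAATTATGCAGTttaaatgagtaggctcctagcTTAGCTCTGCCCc
Skint2: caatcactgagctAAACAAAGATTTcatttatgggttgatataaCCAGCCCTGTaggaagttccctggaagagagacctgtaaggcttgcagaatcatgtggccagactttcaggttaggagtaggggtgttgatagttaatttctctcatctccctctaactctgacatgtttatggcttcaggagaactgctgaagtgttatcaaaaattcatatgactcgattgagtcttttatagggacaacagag
Skint6: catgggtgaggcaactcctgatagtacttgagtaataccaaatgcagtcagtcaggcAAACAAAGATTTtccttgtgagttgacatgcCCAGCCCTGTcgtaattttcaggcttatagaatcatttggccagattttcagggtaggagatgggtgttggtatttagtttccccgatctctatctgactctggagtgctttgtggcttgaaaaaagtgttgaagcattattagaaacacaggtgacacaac
Skint9 and Skint10 were 75.8% identical over 207 aligned bases, with 42 bases in capitals and a longest run of 19. Skint2 and Skint6 were 74.6% identical over 205 aligned bases, with 22 bases in capitals and a longest run of 12. The 4 alignments across the pairs gave 55.5% to 60.7%. Closer relatives of each pair lay outside the 4 genes, since Skint6 was 88.8% identical to Skint5 over 250 bases and Skint10 88.8% identical to Skint11 over 197 bases. The RefSeq start of Skint2 lies inside the Ensembl gene and the bases after it are in none of the gene's GENCODE transcripts, and which start these cells use was not tested.

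4 motifs were searched on both strands of these windows. The AP-1 motif TGANTCA and the grainyhead motif AACNNGTT were not among the letters of any of the 4 sequences, while 6.75% and 3.64% of 32851 RefSeq promoter windows of the same length hold them. The KLF motif CACCC was found in Skint2 (125 bases before the start) and in Skint6 (247 and 100 bases before it), and 52.0% of all windows hold it. The C/EBP motif TTGCNNAA was found in Skint2 alone of the 4, 164 bases before the start, and 9.56% of all windows hold it.

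The sequenced plates held 79 to 91 cells and 12293182 to 19760820 counts each, with a median of 64980 to 256588 counts per cell, and the values of the plates of a time point correlated across genes with r of 0.852 to 0.917. Basal keratinocyte markers had a count in 96.6% to 99.4% of the cells of each time point. The sebaceous gland list had one in 92.2% to 97.7%, and Pecam1, listed for endothelium, in 95.8% to 100%. A count alone therefore does not tell these cell types apart. The fibroblast list had a count in 10.1% to 21.5% of cells. The 3 listed T cell markers in the table had a low summed mean, 1.14 to 3.51 CPM on the 8 plates. CPM are counts scaled to the same total in each cell. A T cell marker had a count in 22.9%, 22.0%, 15.7% and 13.6% of cells in the order of time. Cd3e, a subunit of the T cell receptor complex, was without a count at 0w. Cd3d stood at 2.43 and 2.70 CPM of the summed counts there. The Langerhans cell list stood at 0.248 to 1.27 CPM at 0w and at 5.24 to 100.77 CPM at 1w pw2. The leukocyte list stood at 1.48 to 7.20 CPM at 0w, 0.212 to 1.77 CPM at 1w pw1 and 2.56 to 38.5 CPM at 1w pw2. No stretch of 75 bases (the read length) of the Skint2, Skint9 and Skint10 transcripts occurs in another Skint gene, and 1.28% of those of Skint6 occur in Skint5. Even so, 26.3% of the counts above 0 of Skint2 and 20.8% of those of Skint6 were not whole numbers, against 0.694% for Skint9 and 4.03% for Skint10, and a value is not whole where the quantification divides reads between genes.

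The 4 genes were lower in unwounded skin than 1 week after each wound. For the level, counts were added up over the cells of each plate and scaled to CPM with TMM factors. Skint2 stood at 16.6 and 15.9 CPM on the plates of 0w. After the first wound it stood at 116 and 137 CPM (1w pw1) and later at 62.2 and 103 CPM (8w pw1), and after the repeated wound at 115 and 171 CPM (1w pw2). Both plates of every later time point were above both plates of 0w, 8w pw1 stood between 0w and the other time points, and 1w pw1 and 1w pw2 overlapped. Single cells weighed on these levels, since 1 cell gave 80% and 82.1% of the Skint2 counts on the plates of 0w, and 74.6% on plate 2 of 8w pw1.

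Skint6 stood at 0.415 and 0.971 CPM on the plates of 0w. After the first wound it stood at 36.4 and 70.0 CPM (1w pw1) and later at 8.64 and 6.46 CPM (8w pw1), and after the repeated wound at 19.3 and 19.0 CPM (1w pw2). No 2 time points overlapped, and the order was 0w, 8w pw1, 1w pw2 and 1w pw1. The unwounded value rests on 8 counts in 1 cell of plate 1 and 18 counts in 1 cell of plate 2. At 8w pw1 it rests on single cells too, with 119 of 120 counts from 1 cell of plate 1 and all 99 counts from 1 cell of plate 2.

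Skint9 stood at 25.2 and 75.0 CPM on the plates of 0w. After the first wound it stood at 199 and 330 CPM (1w pw1) and later at 90.2 and 27.9 CPM (8w pw1), and after the repeated wound at 97.5 and 271 CPM (1w pw2). Here 0w and 8w pw1 overlapped, as did 1w pw1 and 1w pw2, and the plates of each of these time points differed by more than those of Skint2. On plate 1 of 8w pw1 a single cell gave 83.3% of the Skint9 counts.

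Skint10 stood at 112 and 58.0 CPM on the plates of 0w. After the first wound it stood at 278 and 580 CPM (1w pw1) and later at 171 and 29.9 CPM (8w pw1), and after the repeated wound at 149 and 220 CPM (1w pw2). The plates of 1w pw1 were above all others, 0w and 8w pw1 overlapped, and 1w pw2 lay above 0w but overlapped with 8w pw1. On plate 1 of 8w pw1 a single cell gave 92.8% of the Skint10 counts.

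**Figure D1:**
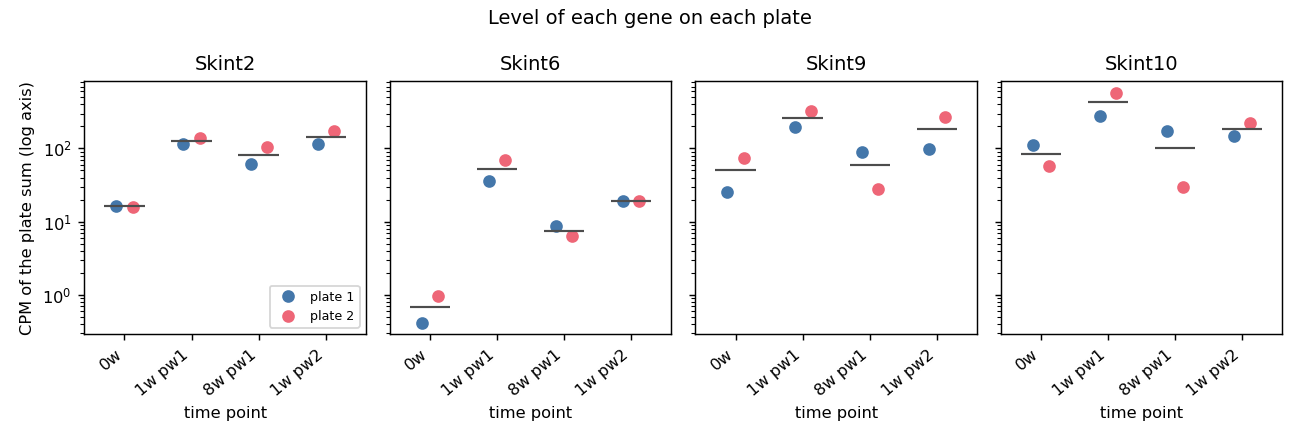
Level of Skint2, Skint6, Skint9 and Skint10 on each plate, as CPM of the summed counts on a log axis, by time point; points are plates and lines the mean of the 2 plates. Skint6 goes from 0.415 and 0.971 CPM at 0w to 36.4 and 70.0 CPM at 1w pw1, and Skint2 stays above its 0w values at every later time point.

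The fitted log2 differences put sizes on this order. Between 1w pw1 and 0w, Skint6 was higher by 6.25 (SE 0.77), Skint2 by 2.96 (SE 0.50), Skint9 by 2.40 (SE 0.78) and Skint10 by 2.34 (SE 0.78), with a median of 2.68 against -0.04 over all 13853 genes tested. Both 1w pw1 plates were above both 0w plates for all 4 genes, as they were for 23% of all genes, and 0.527% of all genes passed the call rule of that comparison (adjusted p below 0.05 in edgeR's quasi-likelihood test and a fold above 2).

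At 8w pw1 the genes parted. Skint6 was higher than at 0w by 3.43 (SE 0.69) and Skint2 by 2.35 (SE 0.49) on the log2 scale, whereas the differences were 0.24 (SE 0.74) for Skint9 and 0.24 (SE 0.75) for Skint10, inside the spread of their plates. For Skint6 this difference sets 3 positive cells against 2. The plates did not overlap for Skint2 and Skint6 only, against 17.8% of all genes higher without overlap, and 0% of all genes were called. The signs of Skint9 and Skint10 in this comparison depended on single plates, since leaving out 8w pw1 plate 1 gave -0.87 for Skint9 and -1.50 for Skint10.

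At 1w pw2, Skint6 was higher than at 0w by 4.78 (SE 0.72), Skint2 by 3.13 (SE 0.51), Skint9 by 1.88 (SE 0.76) and Skint10 by 1.12 (SE 0.75) on the log2 scale. All 4 genes were higher without overlap of the plates, as were 21.5% of all genes, and 0.267% were called. This comparison and the 2 before it share the 0w plates.

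The repeated wound was set against the first in 3 ways. Between 1w pw2 and 1w pw1, the log2 differences were -1.47 for Skint6 (SE 0.61), -1.22 for Skint10 (SE 0.75), -0.52 for Skint9 (SE 0.74) and 0.17 for Skint2 (SE 0.47), and for none of them did both plates of 1w pw2 lie above both of 1w pw1, against 19.9% of all genes with 0% called. For Skint6 and Skint10 both plates of 1w pw2 lay below both of 1w pw1, as for 17.4% of all genes. Between 1w pw2 and 8w pw1, the differences were 1.64 for Skint9 (SE 0.76), 1.34 for Skint6 (SE 0.62), 0.88 for Skint10 (SE 0.75) and 0.79 for Skint2 (SE 0.47), with 3 of the 4 genes (not Skint10) higher without overlap, against 16.8% of all genes with 0.00722% called. The gain after the repeated wound minus the gain after the first was -4.90 for Skint6 (SE 0.92), -2.17 for Skint2 (SE 0.67), -1.46 for Skint10 (SE 1.06) and -0.76 for Skint9 (SE 1.05), with 0% of all genes called.
These last 2 comparisons depended on single plates and cells. Without 8w pw1 plate 1 the median of the 4 genes between 1w pw2 and 8w pw1 was 2.10 in place of 1.11, and the median difference of the gains was -1.10 in place of -1.82. Between 1w pw2 and 8w pw1 the median was 0.71 without 1w pw2 plate 2, and 3.14 with the highest cell of each plate set to 0 for the Skint genes.

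Per kilobase of the longest coding transcript, which makes genes comparable, Skint10 had the highest mean level at 1w pw1 with 312 CPM per kb, followed by Skint9 with 193, Skint2 with 75.6 and Skint6 with 13.9. The order was the same at 0w, with 61.6, 36.5, 9.69 and 0.181 CPM per kb, but not at the other time points. At 8w pw1 Skint2 (49.3 CPM per kb) had a higher mean than Skint9 (43.0), and at 1w pw2 Skint9 (134.5) and Skint10 (133.9) had nearly the same. The plate values of Skint10 and Skint9 overlapped at each of the 4 time points, whereas Skint6 was below the other 3 genes on every plate.

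Listed markers of differentiating keratinocytes are given beside these levels. The summed mean of the 8 listed genes was 4044 to 4967 CPM per cell on the plates of 0w and 32971 to 34376 CPM at 1w pw1. It was 6871 to 8210 CPM at 8w pw1 and 21260 to 21822 CPM at 1w pw2, and none of the 8 was without a count at any time point. Against 0w, edgeR called 2, 0 and 1 of the 8 higher at the later time points in their order (0.527%, 0% and 0.267% of all genes). DESeq2 called 7, 0 and 5 of them (5.22%, 1.12% and 4.97% of all genes), and 7, 0 and 8 had an unadjusted p below 0.05 in edgeR (11.5%, 6.47% and 12.6% of all genes). The edgeR fit with the plate number as a replicate block called 6, 0 and 3 of the 8. It called 1.7% of all genes for 1w pw1 minus 0w and 0.693% for 1w pw2 minus 0w. The 2 of the fit without the block were Calm4, with a log2 difference of 4.11 (SE 0.49, edgeR adjusted p = 0.0127), and Krt10, a suprabasal keratin, with a log2 difference of 4.16 (SE 0.66, edgeR adjusted p = 0.0276). Krt1, its partner, had 4.93 (SE 0.99) and did not pass (edgeR adjusted p = 0.0666). Krt6a, a keratin of wounded epidermis, rose by 6.49 at 1w pw1 (SE 0.54, edgeR adjusted p = 0.00137) and by 4.53 at 1w pw2 (SE 0.50, edgeR adjusted p = 0.0121), both against 0w. Of the 7 wound-activated genes, 4 were called higher than in unwounded skin 1 week after each wound, the other 3 being Krt6b, Krt16 and Stfa1. Krt16, a further keratin of wounded epidermis, differed from 0w by 10.80 for 1w pw1 (SE 0.95, edgeR adjusted p = 0.00153) and by 9.12 for 1w pw2 (SE 0.89, edgeR adjusted p = 0.00651). Krt6b and Stfa1 had no count at 0w, so no fold is given. Krt6b stood at 5141 and 2464 CPM on the plates of 1w pw1 and at 92.7 and 299.01 CPM on those of 1w pw2, and Stfa1 at 1877 and 876 CPM and at 285 and 464 CPM. Krt6b was also called higher at 1w pw2 than at 8w pw1, where it had 3 and 1 counts. Of the scale markers, Mt4, a metallothionein of differentiating epithelia, was called higher than at 0w by 5.30 for 1w pw1 (SE 0.81, edgeR adjusted p = 0.0241) and by 4.96 for 1w pw2 (SE 0.80, edgeR adjusted p = 0.0433). The basal keratins did not pass, with -0.38 (SE 0.49, edgeR adjusted p = 0.845) for Krt5 and 2.10 (SE 0.43, edgeR adjusted p = 0.0721) for Krt14 at 1w pw1 against 0w. In the fit with the replicate block Krt1 and Krt14 passed in that comparison. In summed cells a larger share of cells of a kind and more RNA per cell cannot be told apart, and the part of the differentiating cells in the plate levels was not tested.

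EdgeR called none of the rest of the family. Of the 7 other Skint genes, 0 were called in any of the 6 comparisons by edgeR, with median log2 differences from 0w of 0.77 (1w pw1), 0.63 (8w pw1) and 0.56 for the repeated wound. At an unadjusted p below 0.05 there were 2, 1 and 2 genes in those comparisons, where 11.5%, 6.47% and 12.6% of all genes had one. DESeq2 called 2, 0 and 1 of the 7, and 5.22%, 1.12% and 4.97% of all genes. Skint1 stood at 128 and 71.1 CPM at 0w and at 316 and 409 CPM at 1w pw1, a log2 difference of 1.86 (SE 0.51, edgeR adjusted p = 0.17). Skint3 and Skint4, expressed in a large part of the cells, had 0.86 and 0.77 there, and Skint8 had 0.71. Skint11, with 0.156 and 0 CPM at 0w, reached 0.719 and 14.6 CPM at 1w pw1 and 3.50 and 12.2 CPM at 1w pw2, while Skint5 and Skint7 stayed at or below 18.2 CPM on every plate.

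Genes through which keratinocytes are known to engage or sustain DETCs were listed as a further part of the pathway. Of the 12 tested, 0 were called by edgeR in any of the 6 comparisons, and 5 had an unadjusted p below 0.05 between 1w pw1 and 0w, in both directions, as did 11.5% of all genes. H60c, a ligand of the receptor NKG2D, had a log2 difference of 2.15 there (SE 0.55, edgeR adjusted p = 0.142), but 0.18 for 1w pw2 minus 0w (SE 0.53, edgeR adjusted p = 0.935). Ulbp1, also on the list, went the other way (edgeR adjusted p = 0.0632). It stood at 9.97 to 10.4 CPM on the plates of 0w and at 0 CPM at 1w pw1. Ccl27a, a chemokine of the skin, had -2.88 there (SE 0.57, edgeR adjusted p = 0.0658). All of these were chosen for naming after their values were seen. These calls changed with the tool and the fit. DESeq2 called 5 of the 12 in that comparison, with 5.22% of all genes called. An edgeR fit with the plate number as a replicate block called 4 of the 12 (1.7% of all genes), and 1 of the 12 for 1w pw2 minus 0w (0.693% of all genes). An edgeR fit of only the plates compared called 2 of the 12 for 1w pw1 minus 0w. That fit also called more of all genes than the main fit, with the counts given under the processing. Only 2 of the listed butyrophilin relatives passed the filter on low counts, and 0 were called in any comparison by edgeR or by DESeq2, with 0 at an unadjusted p below 0.05.

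More cells had a count of these genes 1 week after each wound. At least 1 of the 4 genes had a count in 232 cells, 33.3% of all. By plate this was 14 of 88 and 9 of 91 cells at 0w, 40 of 89 and 46 of 79 cells at 1w pw1, 16 of 85 and 15 of 87 cells at 8w pw1, and 43 of 86 and 49 of 91 cells at 1w pw2. The plates of 1w pw1 and 1w pw2 did not overlap with those of 0w and 8w pw1, which lay close to each other. For the share of cells, the part of all genes with such a separation was not counted.

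In percent, the mean of the plates was 12.9% ± 4.26 (SD, n = 2) at 0w and 51.6% ± 9.39 at 1w pw1. It was 18.0% ± 1.12 at 8w pw1 and 51.9% ± 2.72 at 1w pw2. Depth differed between plates, so each cell was also thinned to 50000 counts, which left out 136 shallower cells and kept 144, 147, 119 and 150 cells in the order of time. The thinned means were 12.4%, 51.0%, 20.1% and 51.3%. An exact permutation test of 2 plates against 2 cannot give a p below 0.333, and none was run.
The make-up of the cells differed along with these shares. Of the 9 clusters described further on, clusters 7 and 8, in which 2 of 70 and 1 of 62 cells had a count of the 4 genes, held 77 of the 179 cells at 0w, 2 of 168 at 1w pw1, 46 of 172 at 8w pw1 and 7 of 177 at 1w pw2. The summed sebaceous gland list stood at 1281 to 4372 CPM per cell on the plates of 0w, 558 to 666 CPM at 1w pw1, 1268 to 2273 CPM at 8w pw1 and 1094 to 1385 CPM at 1w pw2, so that the ranges of 0w and 1w pw2 overlapped. In the cells outside those clusters the shares were 21.5% ± 4.95 (SD, n = 2) for 0w and 52.2% ± 9.56 for 1w pw1, then 23.8% ± 1.07 for 8w pw1 and 53.5% ± 1.37 for 1w pw2, and the plates of 1w pw1 and 1w pw2 again did not overlap with the others.
Of the other family members, Skint1, Skint3, Skint4 and Skint11 had plates of 1w pw1 and 1w pw2 above those of 0w and 8w pw1. How many of all genes separate like this was not counted, so this is a description. Skint1 had a count in 31.9%, 67.3%, 32.6% and 70.0% of cells in the order of time, and Skint3 in 31.3%, 58.7%, 31.4% and 59.3%. Skint4 (45.3%, 55.2%, 41.4% and 54.8%) and Skint8 (50.9%, 59.2%, 40.7% and 56.5%) had smaller differences. For Skint4 the gap was narrow, with 48.3% on the lowest plate of 1w pw1 and 48.2% on the highest of 8w pw1. In thinned cells Skint4 overlapped between 1w pw1 and 8w pw1. For Skint8 the plates of 0w and 1w pw1 overlapped. Skint5 (3.86%, 6.19%, 1.16% and 2.84%) and Skint7 (18, 19, 13 and 13 cells) were rare, and their plates of 0w and 1w pw2 overlapped. Skint11 was rare as well, with 1, 9, 1 and 11 cells. Its plates lay at 2.25% and 8.86% at 1w pw1 and at 5.81% and 6.59% at 1w pw2. They lay at or below 1.14% at 0w and 1.15% at 8w pw1.

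Each of the 4 genes had its own share. Skint9 had a count in 8.39%, 32.8%, 9.85% and 32.1% of cells in the order of time, as means of the plates. Skint10 was close to it, with 6.16%, 32.2%, 5.83% and 27.7%. Skint2 stood apart at 8w pw1, where 11 of 85 and 9 of 87 cells had a count against 4 of 88 and 3 of 91 cells at 0w, and its means were 3.92%, 20.4%, 11.6% and 19.3%. Skint6 was the rarest, with 1 cell on each 0w plate, 8 and 19 cells at 1w pw1, 2 and 1 cells at 8w pw1 and 10 and 11 cells at 1w pw2.

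**Figure D2:**
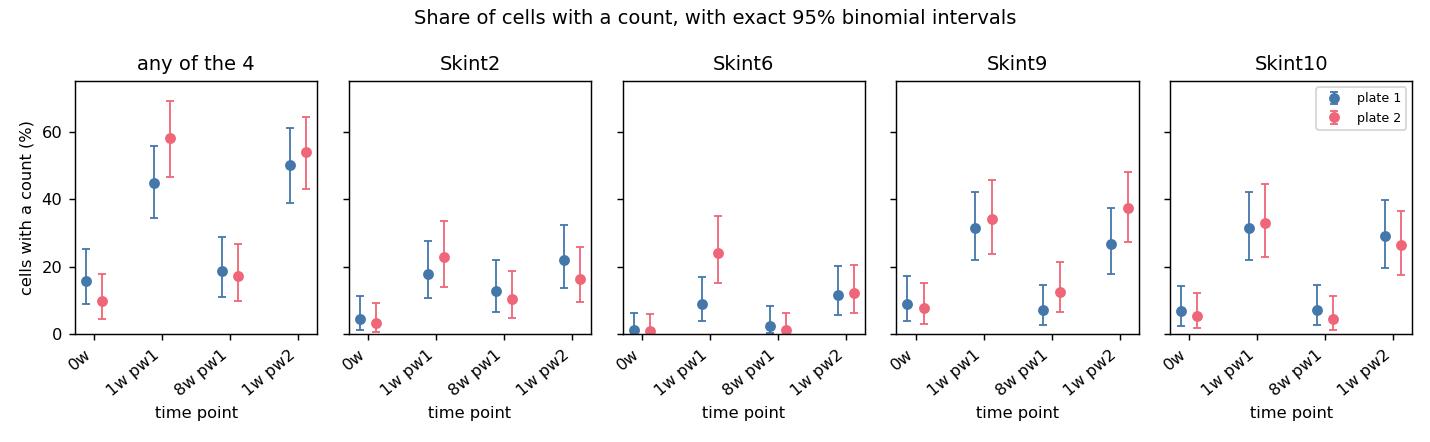
Share of cells with a count of any of the 4 genes and of each gene, in percent by time point; points are plates and bars exact 95% binomial intervals, which cover counting error only. For any of the 4 genes the plates lie at 9.89% to 18.8% in 0w and 8w pw1 and at 44.9% to 58.2% in 1w pw1 and 1w pw2.

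Within the positive cells the level varied over a wide range and showed no such order. The median of the summed 4 genes was 531 CPM over 23 positive cells in unwounded skin and 375 CPM over 86 cells at 1w pw1. It was 532 CPM over 31 cells at 8w pw1 and 503 CPM over 92 cells at 1w pw2. Skint10 had its highest median in the 11 positive cells of 0w, with 1135 CPM, against 317 CPM in 54 cells at 1w pw1, 555 CPM in 10 cells at 8w pw1 and 288 CPM in 49 cells at 1w pw2. Skint2 had 268, 386, 301 and 249 CPM in the same order. These medians pool the plates, which differed. For Skint2 the plates gave 291 and 134 CPM at 0w, 158 and 446 CPM at 1w pw1, 297 and 303 CPM at 8w pw1, and 117 and 613 CPM at 1w pw2. For Skint10 the plates of 1w pw1 gave 218 and 529 CPM and those of 1w pw2 220 and 442 CPM, all below the 874 and 1212 CPM of 0w. Positive cells were deeper than negative cells, with a median of 169370 against 114542 counts, and the part of this in the shares was not tested beyond the thinned values above.

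The 4 genes were not expressed as 1 block. Of the 232 positive cells, 102 had a count of 1 of the genes, 82 of 2, 42 of 3 and 6 of all 4. Across all cells Skint9 and Skint10 had the highest Pearson r of log2(CPM + 1) among the 6 pairs, 0.69, and 95 cells had both, which is 66.0% of the Skint9 cells and 76.6% of the Skint10 cells. The product of the shares of these genes gives 25.7 cells. Within the cells of single time points their r was 0.61, 0.67, 0.67 and 0.70, in the order of time. These correlations describe cells that share plates, depth and cell type, and carry no p.

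Skint2 and Skint6 were at the other end, with r of 0.0094. In all, 7 cells had both, 7.37% of the Skint2 cells and 13.2% of the Skint6 cells, and the product of the shares gives 7.23. Their upstream sequences, printed above, were 74.6% identical. Both were linked to Skint9, with r of 0.25 for Skint2 and 0.32 for Skint6, and to Skint10, with 0.20 and 0.33. These values varied between the cells of single time points. In the order of time, r of Skint2 with Skint9 was 0.05, 0.28, 0.45 and 0.11, and with Skint10 0.13, 0.23, 0.21 and 0.07. Skint6 with Skint9 gave 0.30, 0.40, 0.35 and 0.14, and with Skint10 -0.03, 0.32, 0.50 and 0.27. Few positive cells stand behind the values of Skint6, with 2 at 0w and 3 at 8w pw1. Among the other family members, Skint2 was most like Skint3 (0.46) and Skint6 most like Skint11 (0.41), whereas Skint9 and Skint10 were most like Skint1 (0.48 and 0.42). Skint10 and Skint11, whose upstream sequences were 88.8% identical, had an r of 0.10. Skint6 and Skint5, the other pair at 88.8%, had an r of 0.34, and 15 of the 24 Skint5 cells also had Skint6, and as given above some stretches of read length occur in both genes.

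**Figure D3:**
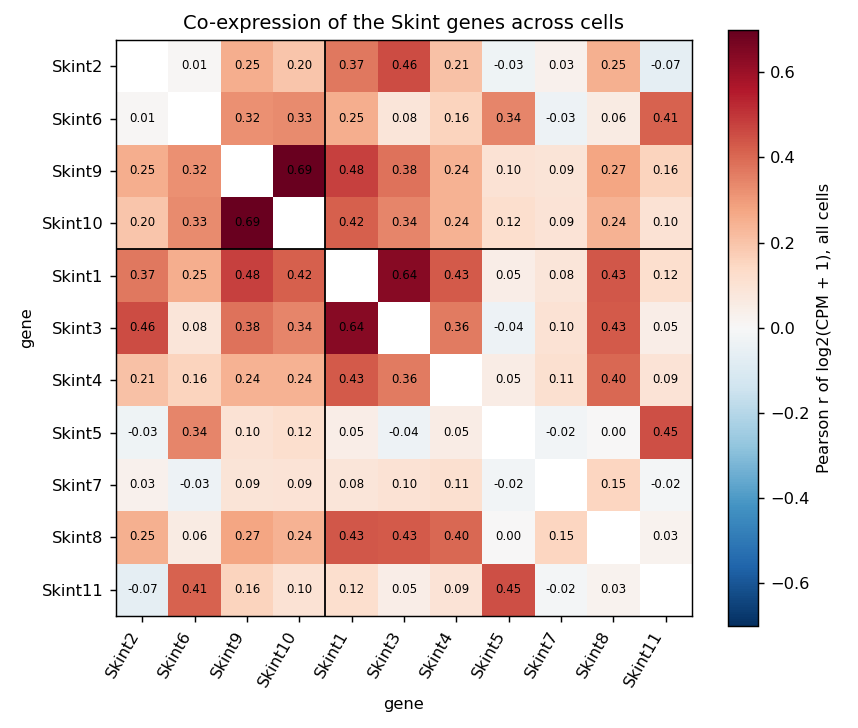
Pearson r of log2(CPM + 1) between the 11 Skint genes across all cells, with the 4 genes followed here above and left of the lines; colour and number give r. Skint9 with Skint10 has the highest value among the 4 genes, 0.69, and Skint2 with Skint6 the lowest.

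The genes outside the family that were most like each of the 4 were taken from 11566 genes with a count in at least 5% of cells. For Skint2 they were Tprg (r = 0.50), Sprr1a, a precursor of the cornified envelope (0.48), the transporter Slc46a2 (0.46), Teddm3 (0.45) and the keratin Krt77 (0.45). For Skint6 they were Serpinb12 (0.55), the calmodulin relative Calm5 (0.53), Slurp2 (0.49), Aadacl2 (0.46) and Casp14, a caspase of terminal keratinocyte differentiation (0.45). These lists share no gene.

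Skint9 and Skint10 shared 3 of 5. For Skint9 they were Olah, a thioesterase of fatty acid synthesis (0.58), Susd2 (0.57), Oas1f (0.52), Slurp2 (0.51) and Serpinb3b (0.51), and for Skint10 Olah (0.57), the membrane protease Tmprss4 (0.50), Slurp2 (0.50), Susd2 (0.49) and the desmosomal cadherin Dsc1 (0.49). Krt5, a basal keratin, had a negative r with all 4 genes, from -0.23 for Skint6 to -0.44 for Skint9. Krt14, also a basal keratin, had 0.05 with Skint2, -0.32 with Skint6, -0.16 with Skint9 and -0.17 with Skint10. Krt10 had 0.21 with Skint2 and 0.33 to 0.35 with the other 3, and Krt1 had -0.05 with Skint2 and 0.34 to 0.40 with the other 3. Krt6a, high after the wounds, had -0.03 to -0.17.

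Within plates, markers of differentiating and duct cells were higher in positive than in negative cells, with median log2 ratios of 1.42 and 1.90 for the summed lists and 8 of 8 plates above 0 for each. The summed junctional zone list was also higher on 8 of 8 plates (0.82). Of its genes, Plet1 was higher on 8 of 8 plates (1.35), Lrig1 on 6 (0.43) and Lgr6 on 2 (-1.86). The mean CPM of Krt5 was lower in positive than in negative cells on 8 of 8 plates, with a median log2 ratio of -3.98. The hemidesmosome genes Col17a1 (-2.52) and Itgb4 (-2.46) were also lower on all 8 plates, as were Lgr5 of the lower follicle (-4.34) and Krt6a (-2.75), and Krt14 was lower on 7 of 8 (-0.58). The other wound-activated genes did not all follow Krt6a. Krt17 was higher on 8 of 8 plates (1.49) and Krt16 on 5 of 8 (0.66), and the summed wound-activated list was higher on 6 of 8 (1.02). The other 4 genes of that list were higher on only 1 or 2 of 8 plates, with -1.09 for S100a8, -0.63 for Stfa1, -0.02 for Krt6b and 0 for S100a9. Krt10 (1.69), Dsc1 (3.07), Krt79 of the upper follicle duct (1.89) and Defb6 (1.76) were higher on 8 of 8 plates. Krt1 was higher on 7 of 8 (1.39). Of the other Skint genes, Skint1 (2.86), Skint3 (1.78) and Skint8 (1.54) were higher in positive cells on 8 of 8 plates, Skint4 (2.02) on 7, Skint5 (1.02) on 6, Skint11 (0.65) on 4 and Skint7 (-0.04) on 3. The summed sebaceous gland and bulge lists were lower on 8 of 8 plates and the granular list, with genes such as Lor and Flg, was higher on 5 of 8. Positive cells at 0w numbered 14 and 9 on the 2 plates, so single cells weigh there.

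**Figure D4:**
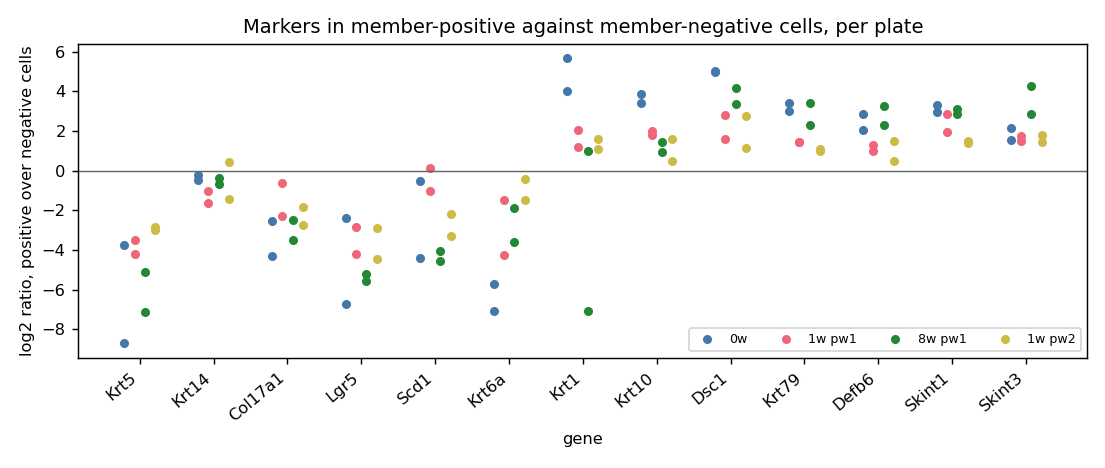
Log2 ratio of the mean CPM + 1 in cells with a count of any of the 4 genes over cells without, for 13 genes; each point is a plate, coloured by time point. Krt5 lies below 0 and Krt10, Dsc1, Krt79, Defb6, Skint1 and Skint3 above 0 on all 8 plates.

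The cells were also clustered without any Skint gene, which gave 9 clusters. The 4 genes were found mainly in 4 of them. In cluster 1 (107 cells, with Rnase2b, Eda2r and Olah leading and Krt79, Defb6 and Gata6 among its genes), 68.2% of cells had a count of at least 1 of the 4. In cluster 4 (90 cells, led by Krt7 and Slc9a9) this was 56.7%, in cluster 5 (72 cells, led by Asprv1, Slc46a2, Krt77 and Cdsn) 72.2%, and in cluster 9 (34 cells, led by Krt2, with Mt4, Krt10 and Krt1 high) 64.7%.

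In the other clusters the pooled shares were lower. In cluster 2, bulge-like by Lgr5, Lhx2, Cd34 and Tbx1, 6 of 100 cells were positive, and in cluster 7, with Lgr6 among its genes, 2.86%. In cluster 3, wound-activated-like by S100a8, S100a9, Krt6b, Krt6a and Krt16, 16.5% were positive, but these were 10 of 27 cells at 1w pw2 (28.6% and 46.2% by plate) against 4 of 35 at 1w pw1 and 1 of 27 at 8w pw1, and 7 of the 27 cells of 1w pw2 had Skint6. In cluster 8, sebaceous gland-like by Cidea, Scd1, Elovl6 and Pparg, it was 1 of 62 cells at a median of 198293 counts, against 189874 counts in cluster 1, and this was the share in a cell type that is not known for these genes. Cluster 6 (70 cells) had a median of 24570 counts and was not named, with 14.3% positive and 5 of 16 positive cells at 1w pw1.
These shares pool time points, and the clusters were filled unequally over time. Cluster 8 held 38, 2, 18 and 4 cells in the order of time and cluster 7 held 39, 0, 28 and 3, so that both consist mostly of cells from the time points with low shares.

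The 4 genes were spread differently over the positive clusters. Skint2 was found in 55.6% of the cells of cluster 5 and 32.7% of cluster 1, but in 8.89% of cluster 4 and 0 of the 34 cells of cluster 9, which allows a share of up to 8.82%. Skint6 was found in 17 of the 34 cells of cluster 9, 14.4% of cluster 4, 9.35% of cluster 1 and 6.94% of cluster 5. These shares of Skint6 pool time points, and 1 week after each wound cluster 9 had the highest share of the 4 clusters while the order of the others differed. In the order of clusters 9, 4, 1 and 5, Skint6 was in 10 of 15, 10 of 29, 7 of 37 and 0 of 15 cells at 1w pw1, and in 7 of 13, 2 of 37, 1 of 33 and 4 of 20 cells at 1w pw2. Skint9 and Skint10 were in all 4, from 54.2% and 43.9% of cluster 1 to 31.9% and 25.0% of cluster 5, pooled over time points. At 0w cluster 5 was above cluster 1, with 6 of 19 against 4 of 14 cells for Skint9. For Skint10 this was 8 of 19 against 2 of 14 cells. At each later time point cluster 1 was above cluster 5 for both genes. Names were rebuilt from markers here, and the clusters are not those of the study.

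**Figure D5:**
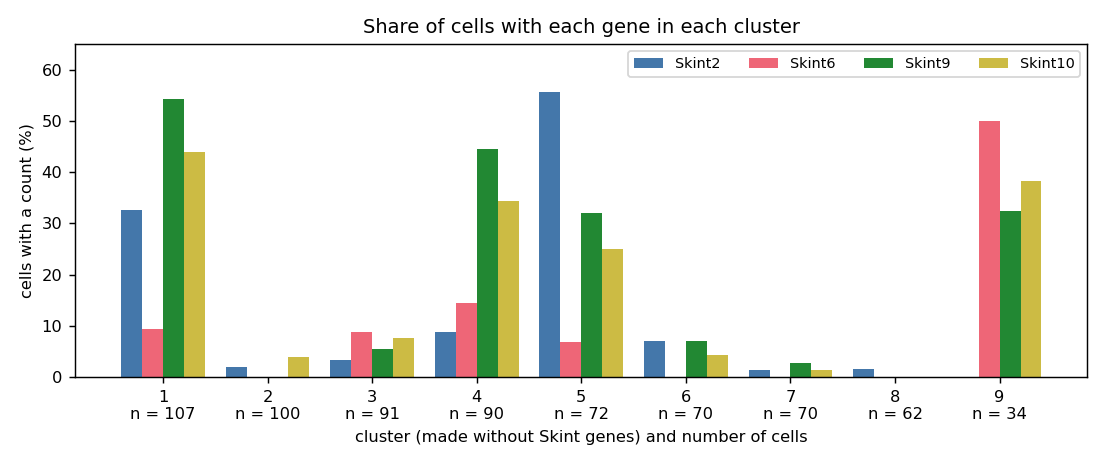
Share of cells with a count of each of the 4 genes in each of 9 clusters made without Skint genes, in percent, with the number of cells under each cluster. Skint2 is highest in cluster 5 (55.6%) and without a count in cluster 9, where Skint6 is highest (17 of 34 cells).

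Within clusters the shares differed between time points to unlike extents. In cluster 1, 5 of 14, 30 of 37, 14 of 23 and 24 of 33 cells were positive, in the order of time. The value of 0w joins 5 of 9 cells on plate 1 and 0 of 5 on plate 2, and without plate 2 it is 55.6%. The plates gave 87.5% and 76.2% at 1w pw1, 54.5% and 66.7% at 8w pw1, and 56.3% and 88.2% at 1w pw2. In cluster 4 these were 4 of 15, 22 of 29, 0 of 9 and 25 of 37 cells. In cluster 5 the share was high at all times, with 12 of 19, 11 of 15, 14 of 18 and 15 of 20 cells. Single genes differed there, with Skint2 in 6, 11, 11 and 12 of these cells. Skint9 was in 6, 2, 6 and 9 of them and Skint10 in 8, 1, 3 and 6. Cluster 9 held no cell of 0w, and 12 of 15, 1 of 6 and 9 of 13 cells were positive afterwards.
Skint2 within cluster 1 was in 0 of 14, 15 of 37, 9 of 23 and 11 of 33 cells, and Skint6 in 1, 7, 1 and 1 of the same cells. Cells of 1 cluster and time point come from at most 2 plates, and these counts are a description.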

How the data were processed

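Single tdTomato+ keratinocytes were sequenced with Smart-seq2 (no molecular identifiers). The authors quantified reads with Salmon 0.13.1 against an Ensembl transcriptome of GRCm38 and deposited expected counts per gene and cell, not normalized, of which 96.6% were whole. The study keeps cells with at least 1000 genes, as all 696 cells had, and 0 columns had no sample. The 4 genes and all gene lists were chosen with earlier results of these data known. Counts were summed over the cells of each of 8 plates, rounded, filtered with filterByExpr (13853 genes left) and fitted by time point with edgeR 4.0.16 in R 4.3.3 (TMM, quasi-likelihood test, Benjamini-Hochberg over all genes). A call needed an adjusted p below 0.05 and a fold above 2, and 6 contrasts were fitted. SE was worked back as the size of the log2 difference over the square root of the test's F. It does not cover the choice of fit, and for Skint6 the alternatives gave 4.34 to 12.1 for 1w pw1 minus 0w. The study tests single cells in Seurat, which was not followed because cells of a plate are not replicates. Same-numbered plates deviated together in all 6 pairs of time points (correlations of 0.121 to 0.213), and a fit with the plate number as a replicate block is given where it changed a count. The script was tested on simulated data. Cells were positive with a count above 0. Clusters used Leiden (leidenalg 0.10.2, resolution 1) on 30 components of 2000 genes, centred by plate, without Skint genes, and doublets were not called. Named genes were the Skint family, the 5 genes most correlated with each of the 4, list genes that passed the call rule, and Krt5, Krt14, Krt1, Krt10 and Krt6a. Other list and marker genes that are named, such as H60c, Ccl27a, Col17a1, Itgb4, Lgr5, Krt17, Krt79, Defb6 and Dsc1, and those given for clusters, were chosen after their values were seen. Sequences are from RefSeq (GRCm38.p6) and all 11 Skint genes matched by symbol. Intervals and shares allowed by 0 cells cover counting error only. DESeq2 1.42.0, other scalings, filters, depths, thresholds and leaving out each plate were tried as alternatives.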

Additional observations from a re-analysis of the deposited data

How the results depend on the processing

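With 2 plates per time point, 4 residual degrees of freedom and a biological coefficient of variation of 0.610, the fit resolves large differences only, and amplification bias cannot be removed without molecular identifiers. The differences of the 4 genes from 0w kept their sign under all 16 alternatives 1 week after either wound, and those of Skint2 and Skint6 did so at 8w pw1, while Skint9 and Skint10 kept theirs in 12 of 16. For 1w pw2 minus 1w pw1, Skint2 kept its sign in 13 of 16 (-0.12 without plate 2 of 1w pw2, -0.40 with every cell scaled equally and -0.10 with the highest cells set to 0) and Skint9 in 15 of 16 (0.02 without plate 1 of 1w pw2). For the difference of the gains, Skint9 kept it in 13 of 15 (0.34 without plate 1 of 8w pw1 and 0.17 with the highest cells set to 0) and Skint10 in 14 of 15 (0.28 without plate 1 of 8w pw1).

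With the highest cell of each plate set to 0 for the Skint genes, the median log2 difference of the 4 genes was 4.10 for 1w pw1 minus 0w (main value 2.68). It was 3.59 for 1w pw2 minus 0w (2.51) and 3.14 for 1w pw2 minus 8w pw1 (1.11). Skint6 has no count left at 0w in that fit, and its own differences from 0w depend on the prior count. The medians rest on the middle genes, which for 1w pw2 minus 8w pw1 were Skint9 (3.12) and Skint10 (3.17). With every cell scaled equally, the median for 8w pw1 minus 0w was 0.62 (1.29). Leaving out 1 plate at a time gave 0.71 to 2.10 for 1w pw2 minus 8w pw1 and -2.07 to -1.10 for the difference of the gains (-1.82). It gave 0 to 1 called DETC contact genes for 1w pw1 minus 0w, and the 1 arose without plate 1 of 8w pw1 and without plate 1 of 1w pw2.

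Against 0w, DESeq2 called 2, 0 and 1 other Skint genes and 5, 1 and 3 DETC contact genes at the 3 later time points in their order, all 0 in the main fit. Fitting only the plates compared called 2 DETC contact genes for 1w pw1 minus 0w, and no filter on low counts called 1 for 1w pw2 minus 0w. Over all genes, DESeq2 called 723, 155 and 688 in place of 73, 0 and 37 for the 3 later time points minus 0w, in their order. It called 41 in place of 0 for 1w pw2 minus 1w pw1, 281 in place of 1 for 1w pw2 minus 8w pw1, and 77 in place of 0 for the difference of the gains. Only the plates compared gave 126, 0, 12, 0 and 0 for the first 5 of these, and no filter gave 5 for 1w pw2 minus 8w pw1.

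The labels do not say what the replicate number of the plates marks. A fit with the number as a block called 236, 3, 96, 0, 8 and 3 genes in the same order, with 4 DETC contact genes for 1w pw1 minus 0w and 1 for 1w pw2 minus 0w. The block changed no other count for the other Skint, DETC contact and butyrophilin lists, and for the marker lists it raised the called differentiating genes as given above and added at most 1 called gene per list and comparison elsewhere.

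Requiring at least 10 counts lowered the share of cells with any of the 4 genes to 42.2% (51.6%), 14.5% (18.0%) and 38.8% (51.9%) at the 3 later time points. At 8w pw1 it was 20.1% in thinned cells and 21.9% in unthinned cells of at least 50000 counts. Another measure, centring, thinning or pseudocount gave a median r of the 6 pairs of 0.25 to 0.29 (0.29). In the cells of single time points, an alternative chosen after seeing the data, it was 0.091, 0.302, 0.402 and 0.125 in the order of time. In cells outside clusters 7 and 8, also chosen after seeing the data, the share with any of the 4 genes was 21.5% (12.9%) at 0w and 23.8% (18.0%) at 8w pw1. The clustering resolutions 0.6 and 1.6 gave a highest cluster share of 70.3% and 81.4% (72.2%). The cause of these changes was not tested.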
